A study of Mus musculus with 26 samples.

Results

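The genes described here are 37 genes of the cellular stress responses that meet at ATF4 and in the endoplasmic reticulum (ER), taken by symbol from a list that was drawn up with earlier results of these data known. All 37 were measured, of 19938 genes in all, each by the brightest probe set that the annotation pairs with a single symbol. They fall into an amino acid arm of 21 genes (Asns, Slc7a11, Chac1, Trib3, Ddit3, Atf4, Atf5, Sesn2, Vldlr, Mthfd2, Psat1, Phgdh, Psph, Shmt2, Slc7a5, Slc3a2, Slc7a1, Slc1a5, Slc38a2, Cth and Nupr1) and an ER arm of 16 genes (Xbp1, Dnajb9, Dnajb11, Dnajc3, Creld2, Hspa5, Hsp90b1, Pdia4, Pdia6, Sdf2l1, Manf, Herpud1, Edem1, Atf6, Ern1 and Hyou1). The study hybridised total RNA of murine Ba/F3/gp130 cells to 26 Affymetrix arrays. Ba/F3 is a cytokine-dependent line described as pro-B, here carrying gp130 and maintained on Hyper-IL-6, a fusion of interleukin-6 and its soluble receptor. One line carried the natural IL-22 receptor pair IL-10R2/IL-22Rα1 and was left untreated (n = 4) or given IL-22 (n = 4). The other carried the synthetic pair mCherryVHHIL-10R2/GFPVHHIL-22Rα1, in which nanobodies (VHH) against mCherry and GFP take the place of the cytokine-binding parts. It was left untreated (n = 6), given a GFP-mCherry fusion protein (n = 6) or given mCherry-Fc, which carries mCherry and no GFP (n = 6). Cells of all 5 groups were washed free of cytokine, starved for 4 h without serum and harvested 2 h after protein was given at 100 ng/ml. The untreated groups received no control protein. The labels do not say whether a line was 1 clone, nor whether arrays of a group came from separate cultures, so that p-values measure the spread between these arrays, which may be technical. The series text gives the aim as testing whether the constructs act without background.

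ATF4 is a transcription factor whose mRNA is translated preferentially when eIF2α is phosphorylated, and it drives genes for amino acid synthesis, amino acid transport and aminoacyl-tRNA supply. The unfolded protein response of the ER has a branch through PERK that feeds into ATF4, a branch through the membrane-bound factor ATF6 and a branch through the kinase and RNase IRE1 (Ern1), which splices Xbp1 mRNA. The last 2 branches drive chaperones, disulphide isomerases and the machinery of ER-associated degradation. An array probe set reads mRNA level, so neither Xbp1 splicing nor cleavage of ATF6 protein was measured.

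The arms differ in the elements that their promoters carry, and 6 promoters that hold an element are printed as examples. RefSeq promoter windows (GRCm38.p6, 250 bases before the annotated start, 5′ to 3′ on the gene's strand) were given for 31 of the 37 genes, some with more than 1 start, with none for Hyou1, Atf6, Manf, Slc1a5, Cth and Slc7a5. Both strands were searched for 3 motifs that do not overlap each other in these windows. The C/EBP-ATF response element (CARE), read as TGATGNAA, was found in 5 of 18 amino acid promoters (27.8%: Asns, Chac1, Nupr1, Slc7a11 and Vldlr), in 1 of 13 ER promoters (7.69%: Herpud1) and in 491 of 15614 promoters of all measured genes (3.14%). The ER stress response element (ERSE), read as CCAAT, 9 bases of any kind and CCACG, was found in none of the 18 amino acid promoters and in 5 of 13 ER promoters (38.5%: Creld2, Dnajc3, Hsp90b1, Hspa5 and Pdia6). Of all promoters, 20 of 15614 (0.128%) held it. The XBP1 and ATF6 element (UPRE), read as TGACGTGG, was in none of the windows of either arm and in 122 of 15614 overall (0.781%). A match is a run of letters and not a shown binding site. The windows of Sdf2l1, Edem1, Xbp1, Dnajb9 and Phgdh, genes that recur in the comparisons that follow, held no match. In the sequences below, capitals mark CARE in the first 3 promoters and the 2 boxes of ERSE in the last 3. An element on the other strand appears as its reverse complement.
Asns (chr6:7693210-7693459, minus strand): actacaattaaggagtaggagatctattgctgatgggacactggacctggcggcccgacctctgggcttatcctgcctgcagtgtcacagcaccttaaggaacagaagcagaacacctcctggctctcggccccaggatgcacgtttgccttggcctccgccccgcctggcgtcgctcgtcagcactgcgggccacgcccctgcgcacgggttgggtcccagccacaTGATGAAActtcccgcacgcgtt
Slc7a11 (chr3:50443614-50443863, minus strand): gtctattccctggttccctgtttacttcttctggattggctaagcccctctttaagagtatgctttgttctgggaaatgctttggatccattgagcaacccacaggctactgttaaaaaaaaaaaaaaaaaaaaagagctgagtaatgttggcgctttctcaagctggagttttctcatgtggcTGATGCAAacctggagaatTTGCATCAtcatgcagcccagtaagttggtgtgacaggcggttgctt
Nupr1 (chr7:126625471-126625720, minus strand): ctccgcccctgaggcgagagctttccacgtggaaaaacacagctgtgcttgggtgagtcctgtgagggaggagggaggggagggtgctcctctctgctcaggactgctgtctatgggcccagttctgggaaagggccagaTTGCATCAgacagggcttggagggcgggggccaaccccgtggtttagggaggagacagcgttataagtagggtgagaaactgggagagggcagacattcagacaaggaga
Hspa5 (chr2:34771840-34772089, plus strand): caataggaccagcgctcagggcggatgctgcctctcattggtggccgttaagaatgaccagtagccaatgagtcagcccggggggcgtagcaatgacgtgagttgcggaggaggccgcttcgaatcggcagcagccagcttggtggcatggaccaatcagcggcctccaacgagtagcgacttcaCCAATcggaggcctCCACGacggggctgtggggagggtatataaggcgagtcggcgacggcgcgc
Hsp90b1 (chr10:86705445-86705694, minus strand): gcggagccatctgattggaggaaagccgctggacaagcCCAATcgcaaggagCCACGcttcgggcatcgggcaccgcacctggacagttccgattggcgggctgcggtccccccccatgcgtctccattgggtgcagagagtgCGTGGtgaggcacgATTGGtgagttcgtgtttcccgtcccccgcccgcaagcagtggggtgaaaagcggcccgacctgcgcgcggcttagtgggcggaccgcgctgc
Creld2 (chr15:88819396-88819645, plus strand): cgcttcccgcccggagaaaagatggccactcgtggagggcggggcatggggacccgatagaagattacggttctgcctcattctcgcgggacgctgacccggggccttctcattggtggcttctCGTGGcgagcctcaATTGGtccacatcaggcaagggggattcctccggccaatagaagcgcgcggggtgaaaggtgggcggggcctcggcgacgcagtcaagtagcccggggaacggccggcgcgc
Slc7a11 held CARE on both strands and Hsp90b1 held ERSE on both strands. The CARE of Asns ended 16 bases before the start, and the ERSE of Hspa5 ended 47 bases before it.

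Values are intensities taken as log2 from their range, since the labels do not state the scale, with array medians between 6.06 and 6.28, and a difference is always on that log2 scale. Levels of different genes were not compared, since probe sets differ in brightness. A gene was called when its adjusted p (limma's moderated test, Benjamini-Hochberg over all 19938 genes) was below 0.05. Where groups are said not to overlap, this only describes the arrays of that gene. The share of all genes without overlap is not given. As a check of the ligands, Socs3 and Cish, feedback inhibitors of cytokine signalling, rose by 4.30 and 2.06 with IL-22, by 1.02 and 1.06 with GFP-mCherry and by 0.94 and 0.43 with mCherry-Fc. Of the B lineage markers, the signalling chains Cd79a and Cd79b were at 8.80 to 9.72 (group means), while Pax5, Ebf1, Rag1, Rag2, Vpreb1 and Cd24a lay below the array medians in all 5 groups. Of the other 3 of the 11 markers, Vpreb2 was above them (6.97 to 7.30), and Igll1 (6.19 to 6.44) and Vpreb3 (5.71 to 6.22) lay near or below. Of the 6 myeloid markers, the granule protease gene Prtn3 (10.02 to 10.80) and Mpo (7.21 to 8.99) were above them in all groups. Csf1r (5.90 to 6.23) and Elane (6.09 to 6.40) lay near them, and Itgam and Lyz2 lay below them in the synthetic groups. Of the 4 erythroid markers, Gata1 (9.75 to 10.18), Klf1 (7.23 to 8.92) and Epor (7.63 to 8.08) were above and Alas2 (5.31 to 5.53) was below.

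The natural receptor arrays fell into distinct sets by the number in their titles, and this touches every result on that line. In the 3 arrays numbered 4 or 5, the myeloid marker Itgam was at 11.73 to 12.05, against 8.73 to 8.98 in the 5 arrays numbered 1 to 3. Mpo was at 10.62 to 11.00 against 6.97 to 7.19, and Lyz2 at 7.53 to 8.21 against 5.11 to 5.24. The other 3 of the 6 myeloid markers (Csf1r, Elane and Prtn3) differed by 0.31 or less between these sets. The mean of the list per array ran from 7.25 to 8.95 in untreated and from 7.27 to 8.96 in IL-22 arrays, and from 6.54 to 6.93 over the synthetic groups, where low and high numbers differed by 0.41 or less in each of the 6 markers. These markers move with the number range on the natural line, and their part in the results on that line was not tested. The high range holds 1 IL-22 array, array 5, whose spread is taken from the other arrays of the fit. Differences within the high numbers of this line are therefore given as sizes only. The counts of calls kept under every alternative, given at the end, do take in that fit. In bulk RNA, fewer cells of a type and less RNA per cell cannot be told apart.

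IL-22 raised 2 genes at the head of the ER response, Atf6 3.11-fold and Xbp1 1.44-fold, while none of the 6 ER chaperone and isomerase genes Hspa5, Hsp90b1, Pdia4, Pdia6, Sdf2l1 and Hyou1 passed the test. Of these 6, Hyou1 lay higher on every IL-22 array (10.78 to 10.83) than on every untreated array (10.64 to 10.75). In the amino acid arm 4 of 21 genes rose and none fell: Nupr1 2.03-fold, Slc1a5 1.73-fold, Mthfd2 1.5-fold and Slc7a5 1.26-fold. In the ER arm 2 of 16 rose, and Dnajb9, the co-chaperone that restrains IRE1, fell by 0.40 (SE 0.11, adjusted p = 0.0184). Over all genes tested, 5.39% rose and 6.03% fell. The median was 0.07 in the amino acid arm and 0.01 in the ER arm, beside -0.02 for all genes. Other markers moved with IL-22: of 4 erythroid markers Klf1 fell by 1.12 and Epor by 0.26, of 3 IL-3 receptor genes Csf2rb rose by 0.71 and Csf2rb2 by 0.62, Prtn3 rose by 0.29 and Cd79b fell by 0.29. Their part in the results was not tested.

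Atf6, the ER membrane sensor that is cut to release a transcription factor, read 11.26, 11.23, 11.39 and 11.12 on the IL-22 arrays and 9.67, 9.62, 9.58 and 9.60 on the untreated arrays. No array of one group came near the other. The difference was 1.63 (SE 0.07, adjusted p = 5.85e-17), and it was 1.65 within the low numbers and 1.53 within the high numbers. Xbp1, the factor spliced by IRE1, read 11.92, 12.01, 11.99 and 11.89 with IL-22 and 11.50, 11.42, 11.41 and 11.40 without. These groups did not overlap either, and the difference was 0.52 (SE 0.07, adjusted p = 8.35e-07), 0.52 within the low and 0.48 within the high numbers. Ern1, which encodes IRE1 itself, differed by -0.16 (SE 0.14, adjusted p = 0.606). It read 8.91, 8.98 and 8.92 on IL-22 arrays 1 to 3 and 9.89 on array 5, and without array 5 the difference was -0.40 and passed the test. That fit sets IL-22 arrays of low numbers alone against untreated arrays of both ranges. Within the low numbers Ern1 averaged 8.94 with IL-22 and 9.17 without, a difference that did not pass. Within the high numbers it averaged 9.89 with IL-22 (1 array) and 9.52 without.

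Nupr1, a small stress-induced chromatin protein, read 8.19, 8.44, 8.27 and 9.33 with IL-22 and 7.50, 7.47, 7.51 and 7.68 without. All IL-22 arrays were higher, array 5 most of all, and the difference was 1.02 (SE 0.15, adjusted p = 1.47e-05), 0.82 within the low and 1.74 within the high numbers. Slc1a5, the neutral amino acid and glutamine carrier ASCT2, read 10.09, 10.03, 10.14 and 9.20 with IL-22 and 9.33, 9.39, 8.93 and 8.64 without. IL-22 array 5 lay below 2 of the untreated arrays, yet above both untreated arrays of its own number range. The difference was 0.79 (SE 0.16, adjusted p = 0.000888), 0.73 within the low numbers and 0.42 within the high numbers. Mthfd2, the mitochondrial folate enzyme of one-carbon metabolism, read 10.15, 10.19, 10.11 and 9.82 with IL-22 and 9.75, 9.78, 9.24 and 9.17 without, a difference of 0.58 (SE 0.13, adjusted p = 0.00146) with no overlap, and of 0.38 within the low and 0.62 within the high numbers. Slc7a5, the light chain of the large neutral amino acid carrier LAT1, read 11.92, 12.00, 11.98 and 11.51 with IL-22 and 11.84, 11.78, 11.32 and 11.15 without. Its groups overlapped, and the difference was 0.33 (SE 0.11, adjusted p = 0.0461). It was 0.16 within the low numbers, where it did not pass, and 0.28 within the high numbers. Leaving out single arrays, the call of Slc7a5 was lost in 5 of 8 cases and that of Dnajb9 (-0.41 within the low and -0.17 within the high numbers) in 4 of 8.

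Atf4 read 9.99, 9.94, 10.03 and 8.88 with IL-22 and 9.58, 9.62, 8.93 and 8.68 without. The difference of 0.51 (SE 0.18) did not pass the test (adjusted p = 0.07). It was 0.39 within the low numbers, where it passed (adjusted p = 0.000243). Within the high numbers Atf4 averaged 8.88 with IL-22 (1 array) and 8.81 without. With arrays of one number taken as pairs (the replicate block), a pairing the labels do not state, the difference of Atf4 was 0.33 and passed (adjusted p = 0.00769). With number range as a term it was 0.28 and passed (adjusted p = 0.00279). Leaving out single arrays, the adjusted p of Atf4 ran from 0.000109 to 0.308. Ddit3, the factor CHOP that marks severe ER stress, read 7.90, 8.12, 8.24 and 8.62 with IL-22 and 8.32, 8.16, 8.10 and 8.23 without. IL-22 arrays lay both above and below the untreated arrays, and the difference was 0.02 (95% interval -0.20 to 0.23), -0.15 within the low and 0.46 within the high numbers. Chac1 (-0.04), Trib3 (0.11) and Sesn2 (-0.17), other genes usually raised by ATF4, did not pass either. Leaving out IL-22 array 5 sets IL-22 arrays of low numbers alone against untreated arrays of both ranges. The count of amino acid genes called was then 8 of 21 in place of 4, adding Asns, Atf4, Shmt2 and Slc7a1. Without the 3 arrays numbered 4 and 5, an alternative chosen after seeing the data, it was 4, with Atf4 in and Slc7a5 out, and the ER arm had 2 rises and 1 fall. Median centring gave 2 rises and no fall in the ER arm. Fitting only the 2 groups compared left 2 amino acid genes called. Shares over all genes are given for the fit as reported alone, here and below, so counts under alternatives have none beside them.

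**Figure D1:**
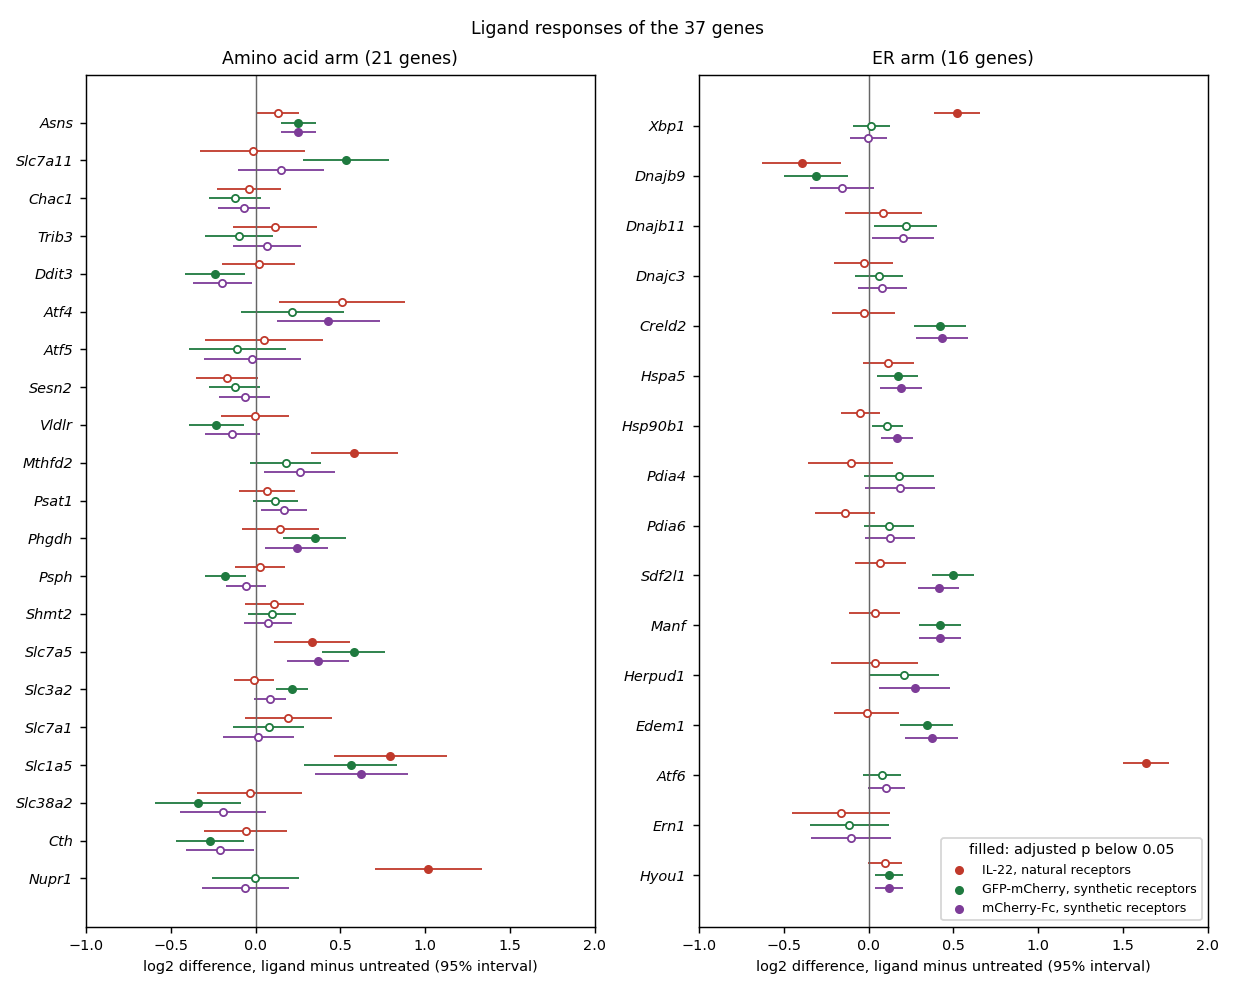
Log2 difference of each of the 37 genes, ligand minus untreated, with its 95% interval; the left panel holds the amino acid arm and the right panel the ER arm, and filled points have an adjusted p below 0.05. Atf6 (1.63), Nupr1 (1.02) and Xbp1 (0.52) are filled for IL-22 and for neither synthetic ligand, while Sdf2l1, Manf, Creld2 and Edem1 are filled for both synthetic ligands, which share their untreated arrays.

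On the synthetic receptors, GFP-mCherry raised genes of folding and degradation in the ER: Sdf2l1 1.41-fold, Creld2 1.34-fold, Manf 1.34-fold and Edem1 1.27-fold. In all 6 of 16 ER genes rose, with Hspa5 (0.17) and Hyou1 (0.12) by less, and Dnajb9 alone fell, by 0.31. In the amino acid arm 6 of 21 rose, namely Slc7a5, Slc1a5, Slc7a11, Phgdh, Asns and Slc3a2, and 5 fell, namely Slc38a2, Cth, Ddit3, Vldlr and Psph. Over all genes tested, 14.2% rose and 11.8% fell. The median was 0.08 in the amino acid arm and 0.15 in the ER arm, beside -0.04 for all genes.

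Sdf2l1, which keeps BiP clients soluble in the ER, had its lowest, median and highest values at 9.68, 9.75 and 9.87 in untreated cells and at 10.20, 10.26 and 10.30 with GFP-mCherry. The difference was 0.50 (SE 0.06, adjusted p = 6.44e-07). Manf, a secreted ER-resident factor, stood at 8.87, 9.07 and 9.15 untreated and at 9.38, 9.44 and 9.55 with GFP-mCherry, a difference of 0.42 (SE 0.06, adjusted p = 9.82e-06). Creld2, a disulphide isomerase-like protein, stood at 9.00, 9.17 and 9.32 against 9.52, 9.60 and 9.69, a difference of 0.42 (SE 0.07, adjusted p = 0.00011). Edem1, which hands misfolded glycoproteins to degradation, stood at 9.31, 9.47 and 9.65 against 9.73, 9.82 and 9.89, a difference of 0.34 (SE 0.08, adjusted p = 0.00136). For each of these 4 genes every GFP-mCherry array exceeded every untreated array. Hspa5, which encodes the chaperone BiP, overlapped between groups (11.82, 11.91 and 12.09 against 12.06, 12.09 and 12.17).

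None of the sensor genes passed the test. Atf6 stood at 9.13, 9.35 and 9.39 untreated and at 9.31, 9.36 and 9.51 with GFP-mCherry, a difference of 0.08 (95% interval -0.03 to 0.19). Xbp1 differed by 0.02 (95% interval -0.09 to 0.12) and Ern1 by -0.11 (95% interval -0.35 to 0.12). Atf4 stood at 9.10, 9.17 and 9.26 untreated and at 9.34, 9.40 and 9.44 with GFP-mCherry, without overlap. Its difference of 0.22 did not pass in the fit that shares one spread over all 5 groups (adjusted p = 0.289), and passed when only these 2 groups were fitted (adjusted p = 0.00323). Its adjusted p over 22 alternatives ran from 0.00174 to 0.583.

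Of the carriers in the amino acid arm Slc7a5, Slc1a5, Slc7a11 and Slc3a2 rose, Slc38a2 fell and Slc7a1 (0.08) did not pass. Slc7a5 stood at 11.05, 11.08 and 11.13 untreated and at 11.63, 11.66 and 11.70 with GFP-mCherry with no overlap and little spread within either group, a difference of 0.58 (SE 0.09, adjusted p = 2.32e-05). Slc1a5 stood at 8.33, 8.71 and 8.87 against 9.05, 9.22 and 9.41, a difference of 0.56 (SE 0.13, adjusted p = 0.00253), with no overlap. Slc7a11, the cystine-glutamate exchanger, stood at 6.56, 6.89 and 7.34 against 7.36, 7.47 and 7.54, a difference of 0.53 (SE 0.12, adjusted p = 0.002). Its untreated arrays were spread widely, and the difference was 0.82 within the low numbers and 0.25 within the high numbers. Asns, asparagine synthetase, stood at 11.16, 11.20 and 11.23 against 11.40, 11.45 and 11.50, a difference of 0.25 (SE 0.05, adjusted p = 0.00044). Phgdh, which opens serine synthesis, rose by 0.35 (SE 0.09, adjusted p = 0.00521). Within the high numbers its difference was 0.59, and within the low numbers it was 0.11 and did not pass.

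In the other direction, Slc38a2, a starvation-induced neutral amino acid carrier, fell by 0.34 (SE 0.12, adjusted p = 0.0444), Cth, which makes cysteine, by 0.27 (SE 0.10, adjusted p = 0.0419), Ddit3 by 0.24 (SE 0.09, adjusted p = 0.039) and Vldlr, a lipoprotein receptor, by 0.23 (SE 0.08, adjusted p = 0.0312). Ddit3 had its lowest, median and highest values at 7.88, 7.97 and 8.05 untreated and at 7.59, 7.74 and 7.82 with GFP-mCherry. With each array centred on its own median the split was 6 higher and 0 lower in the amino acid arm and 8 higher and 0 lower in the ER arm, so none of the 6 falls held there. Leaving out single arrays, of 12 cases the call was lost in 8 for Slc38a2 and Cth, in 7 for Ddit3, in 6 for Vldlr, Hspa5 and Hyou1 and in 4 for Psph. Without GFP-mCherry array 13 or untreated array 12, 7 of 21 amino acid genes were called in place of 11, 6 higher and 1 lower. With number range as a term 11 of 16 ER genes were called, 12 within the low numbers and 5 within the high numbers. The share of all genes called under these alternatives is not given, and whether these counts follow it was not tested.

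**Figure D2:**
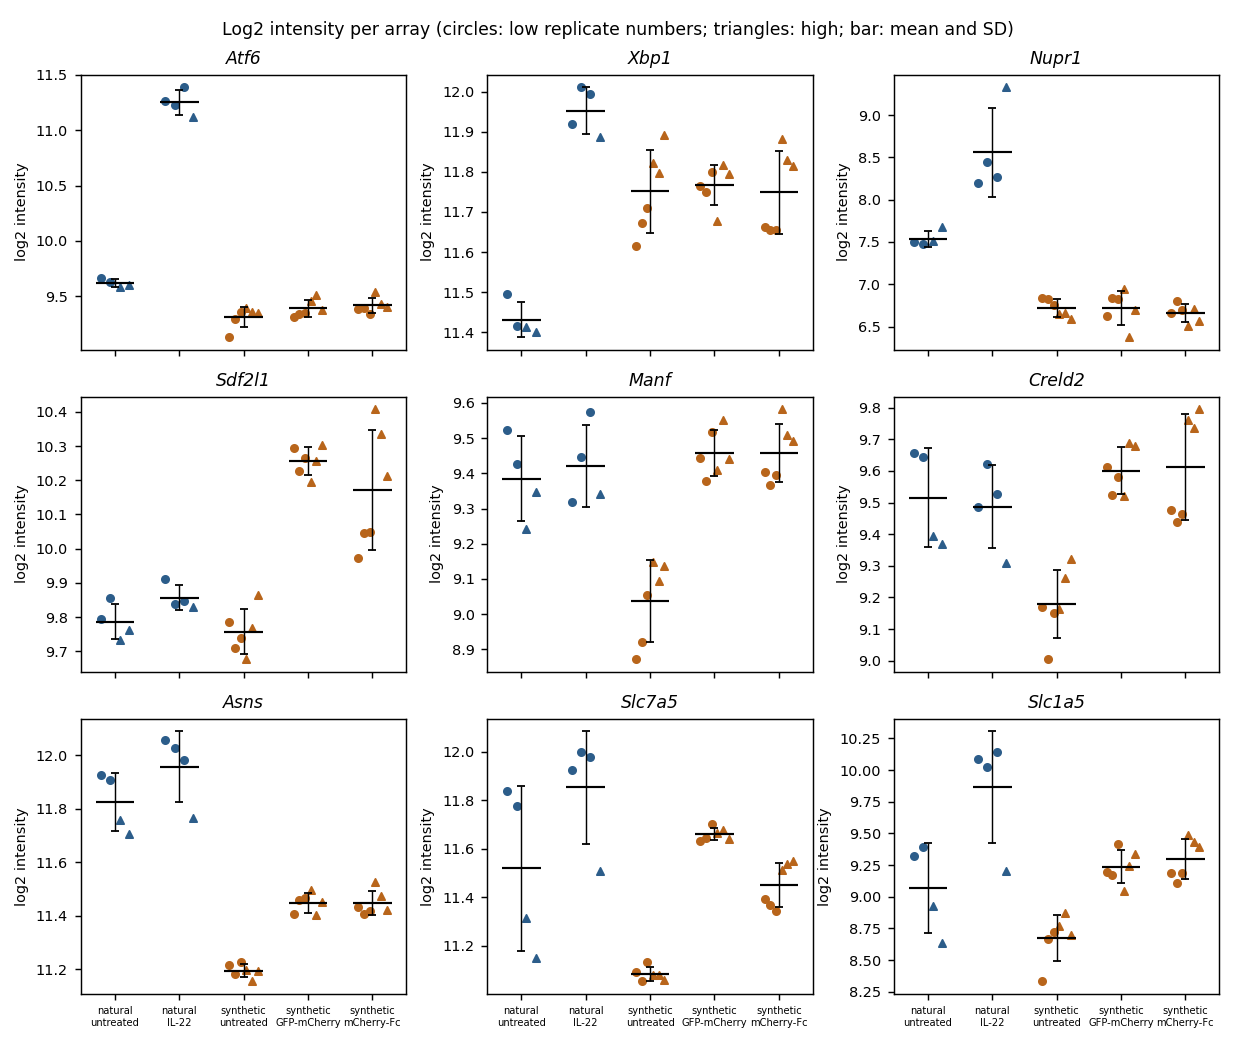
Log2 intensity of 9 genes on each of the 26 arrays, by group; circles are low and triangles high replicate numbers, bars are the group mean with its SD. In the top row the IL-22 arrays stand apart from all others for Atf6 (11.12 to 11.39). In the middle row both synthetic ligand groups lie above untreated synthetic cells. In the bottom row Slc7a5 is tight in synthetic cells and spread in natural cells.

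mCherry-Fc, compared with the same 6 untreated arrays, raised 8 of 16 ER genes and 5 of 21 amino acid genes, and lowered none of either arm. Over all genes tested, 14.0% rose and 13.0% fell. The median was 0.18 in the ER arm and 0.07 in the amino acid arm, beside -0.04 for all genes. Creld2 rose by 0.43 (SE 0.07, adjusted p = 0.000122), Manf by 0.42 (SE 0.06, adjusted p = 1.52e-05), Sdf2l1 by 0.41 (SE 0.06, adjusted p = 1.59e-05) and Edem1 by 0.37 (SE 0.08, adjusted p = 0.000751). Herpud1 (0.27), a scaffold of ER-associated degradation, Hspa5 (0.19), Hsp90b1 (0.17), which encodes the chaperone GRP94, and the chaperone gene Hyou1 (0.12) rose by less.

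The lowest, median and highest mCherry-Fc values were 9.97, 10.13 and 10.41 for Sdf2l1, 9.37, 9.45 and 9.58 for Manf, 9.44, 9.61 and 9.80 for Creld2, and 9.69, 9.81 and 10.02 for Edem1. All lay above the highest untreated array of the gene. In the amino acid arm Slc1a5 stood at 9.11, 9.29 and 9.49, a difference of 0.62 (SE 0.13, adjusted p = 0.0012). Slc7a5 stood at 11.35, 11.45 and 11.55, a difference of 0.37 (SE 0.09, adjusted p = 0.00375). Neither overlapped with untreated cells. Asns rose by 0.25 (SE 0.05, adjusted p = 0.000599), and Phgdh by 0.24 (SE 0.09, adjusted p = 0.0473). Atf4 stood at 9.47, 9.60 and 9.76, above all untreated arrays, and rose by 0.43 (SE 0.15, adjusted p = 0.0323). Atf6 (0.10), Xbp1 (-0.00), Ern1 (-0.11) and Ddit3 (-0.20) did not pass the test.

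With mCherry-Fc and untreated arrays of one number taken as pairs (the replicate block), 5 ER genes rose in place of 8, without Hspa5, Hsp90b1 and Hyou1. In the amino acid arm 6 genes then rose, without Phgdh. Normalizing the values again by quantiles gave 4 higher and 1 lower in the ER arm and 3 higher and 2 lower in the amino acid arm, and median centring 10 and 8 higher with none lower. Without untreated array 9, mCherry-Fc array 13 or mCherry-Fc array 14, 3 amino acid genes were called. Of the 12 cases that leave out an array, the call was lost in 6 for Atf4 (adjusted p up to 0.0682), in 9 for Phgdh, in 8 for Herpud1, in 5 for Hyou1 and in 2 for Hspa5.

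Set directly against mCherry-Fc, GFP-mCherry differed in none of the 37 genes after adjustment over all genes in limma, where 0.722% of all genes were higher and 0.371% lower. At an unadjusted p below 0.05 there were 4 of 21 amino acid genes and 0 of 16 ER genes, beside 8.78% of all genes. The largest of these differences was that of Slc7a11, at 7.36, 7.47 and 7.54 with GFP-mCherry and 6.71, 7.16 and 7.35 with mCherry-Fc. The groups did not overlap, and the difference was 0.38 (95% interval 0.13 to 0.63, adjusted p = 0.203). Slc7a5 differed by 0.21 (95% interval 0.03 to 0.39, adjusted p = 0.462) and Slc3a2, the heavy chain shared by these carriers, by 0.13 (95% interval 0.03 to 0.23, adjusted p = 0.305), both higher with GFP-mCherry on every array. Psph, the last enzyme of serine synthesis, differed by -0.12 (95% interval -0.24 to -0.00). Atf4 differed by -0.21 (95% interval -0.52 to 0.09), also without overlap. Lack of overlap is no more than a description here, since the share of all genes without overlap is not given. With number range as a term Slc7a11, Slc7a5 and Atf4 were called, and with only these 2 groups in the fit Slc7a5 and Atf4.

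The ER genes raised by both ligands gave these differences. Manf differed by -0.00 (95% interval -0.13 to 0.12), Creld2 by -0.01 (95% interval -0.16 to 0.14), Sdf2l1 by 0.09 (95% interval -0.04 to 0.21) and Edem1 by -0.03 (95% interval -0.19 to 0.12). Atf6 differed by -0.03, Xbp1 by 0.02, Ern1 by -0.01 and Ddit3 by -0.04, none past the test. Within the low numbers 1 ER gene, Sdf2l1, was called, and 3 amino acid genes (Slc7a11, Slc7a5 and Trib3).

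The ER arm split in opposite ways when the GFP-mCherry response was tested against the IL-22 response in one model. The 2 responses differ in line, receptor and ligand together, and these cannot be told apart. Untreated levels (group means) were 9.04 in synthetic and 9.38 in natural cells for Manf, and 9.18 and 9.52 for Creld2. They were 9.47 and 9.66 for Edem1, and 9.76 and 9.79 for Sdf2l1. The response of Atf6 to GFP-mCherry differed from that to IL-22 by -1.56 (SE 0.08, adjusted p = 1.75e-13) and that of Xbp1 by -0.51 (SE 0.08, adjusted p = 9.85e-05). Creld2 responded more by 0.45 (SE 0.12, adjusted p = 0.0088), Sdf2l1 by 0.43 (SE 0.09, adjusted p = 0.00213), Manf by 0.38 (SE 0.10, adjusted p = 0.00663) and Edem1 by 0.35 (SE 0.12, adjusted p = 0.048), a call that was lost in 15 of the 20 cases that leave out an array. In the amino acid arm Nupr1 differed by -1.02 (SE 0.20, adjusted p = 0.000566) and Slc3a2 by 0.22 (SE 0.07, adjusted p = 0.0409), a call lost in 13 of the 20. That is 4 of 16 ER genes more and 2 less, and 1 of 21 amino acid genes each way, with 9.23% of all genes more and 4.40% less. The median was 0.15 in the ER arm and -0.16 in the amino acid arm, beside -0.02 for all genes. Atf4 (-0.29), Ddit3 (-0.26) and Ern1 (0.05) did not pass. With quantile normalization Ddit3 was called at -0.40, and it was -0.04 within the low and -0.75 within the high numbers.

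The natural arrays also limit this test. Within the high numbers, where 1 IL-22 array stood against 2 untreated, the differences were -1.45 for Atf6, -0.55 for Xbp1, 0.45 for Creld2, 0.40 for Sdf2l1, 0.29 for Manf and 0.04 for Edem1. Within the low numbers 11 ER genes were called, 9 more and 2 less, with no share of all genes to set beside them. Without the 3 natural arrays numbered 4 and 5 the ER counts stayed at 4 and 2, and the amino acid counts at 1 each way, there with Slc7a5 in the place of Slc3a2. Quantile normalization gave 1 more and 4 less in the amino acid arm. Leaving out IL-22 array 5 gave 4 amino acid genes, all less, and 1, Slc3a2 being lost, was left without IL-22 array 2 or 3, untreated natural array 5, GFP-mCherry array 9, 11, 12 or 14, or untreated synthetic array 12.

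**Figure D3:**
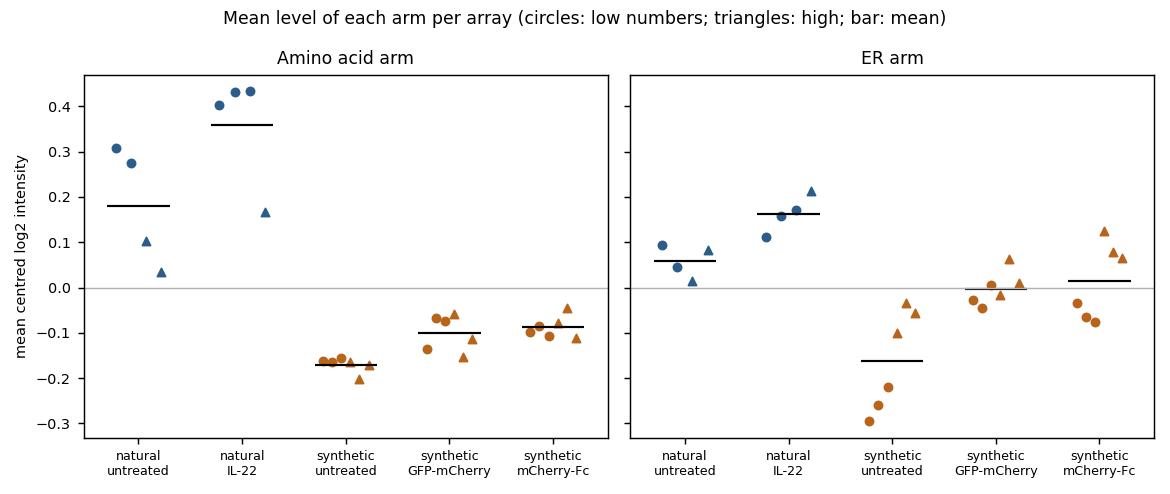
Mean of each arm per array, each gene centred on its mean over the 26 arrays, in log2 units; circles are low and triangles high replicate numbers, and the bar is the group mean. The amino acid arm is above 0 on all natural arrays (0.03 to 0.43) and below 0 on all synthetic arrays, and the ER arm of untreated synthetic cells splits by number, from -0.29 to -0.22 in low and from -0.10 to -0.03 in high numbers.

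The untreated lines differed in many of these genes. In untreated synthetic cells 11 of 21 amino acid genes and 8 of 16 ER genes were lower than in untreated natural cells, and 2 and 1 were higher. Over all genes tested, 8.60% were higher and 6.62% lower, and the arm medians were -0.35 and -0.26 beside 0.01 for all genes. Slc7a11 was 4.14-fold lower, at 6.56, 6.89 and 7.34 (lowest, median and highest) in synthetic cells and at 8.97, 8.69, 9.03 and 9.18 on the natural arrays, a difference of -2.05 (SE 0.14, adjusted p = 9.52e-12). Nupr1 differed by -0.82 (adjusted p = 0.000108), Asns by -0.63 (adjusted p = 3.67e-09) and Phgdh by -0.58 (adjusted p = 0.000158), and none of these overlapped between lines. Cth (-0.58), Atf5 (-0.47), Slc7a1, the cationic amino acid carrier (-0.47), Slc7a5 (-0.44), Slc3a2 (-0.42), the pseudokinase gene Trib3 (-0.35) and Sesn2 (-0.24) were lower too. Slc38a2 was higher by 0.43 (adjusted p = 0.033) and Psph by 0.20 (adjusted p = 0.0375).

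In the ER arm Ern1 differed by -0.58 (SE 0.13, adjusted p = 0.00201), Dnajb9 by -0.54 (SE 0.10, adjusted p = 0.000452), Hyou1 by -0.51 (SE 0.05, adjusted p = 4.31e-09) and Hspa5 by -0.36 (SE 0.07, adjusted p = 0.000274). Manf (-0.35), Creld2 (-0.34), Atf6 (-0.31) and Hsp90b1 (-0.16) were also lower. Xbp1 went the other way, at 11.62, 11.75 and 11.89 in synthetic cells against 11.50, 11.42, 11.41 and 11.40, a difference of 0.32 (SE 0.06, adjusted p = 0.000321). Manf stood at 9.52, 9.43, 9.24 and 9.35 on the natural untreated arrays, above the 8.87 to 9.15 of untreated synthetic cells. Sdf2l1 differed by -0.03 (95% interval -0.17 to 0.11) and did not pass the test.

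Of the 6 myeloid markers 3 were lower in untreated synthetic cells, Itgam at 5.59 against 10.34, Mpo at 7.21 against 8.99 and Lyz2 at 5.06 against 6.52, and Prtn3 was higher at 10.59 against 10.02. Their part in the line differences was not tested. Line, construct and handling cannot be told apart here, and the untreated lines share no replicate number. Without the natural arrays numbered 4 and 5, 14 of 21 amino acid genes were lower and none higher: Atf4 (-0.42), Slc1a5 (-0.68), Mthfd2 and Shmt2 joined, while Sesn2, Psph and Slc38a2 did not pass. In the ER arm 7 were then lower and 1 higher. With untreated natural array 4, or untreated synthetic array 13 or 14, left out, 8 amino acid genes were called in place of 13, all lower. Of the 10 cases that leave out an array, the call was lost in 7 for Psph, in 6 for Atf5, Trib3 and Sesn2 and in 5 for Slc38a2 and Hsp90b1.

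**Figure D4:**
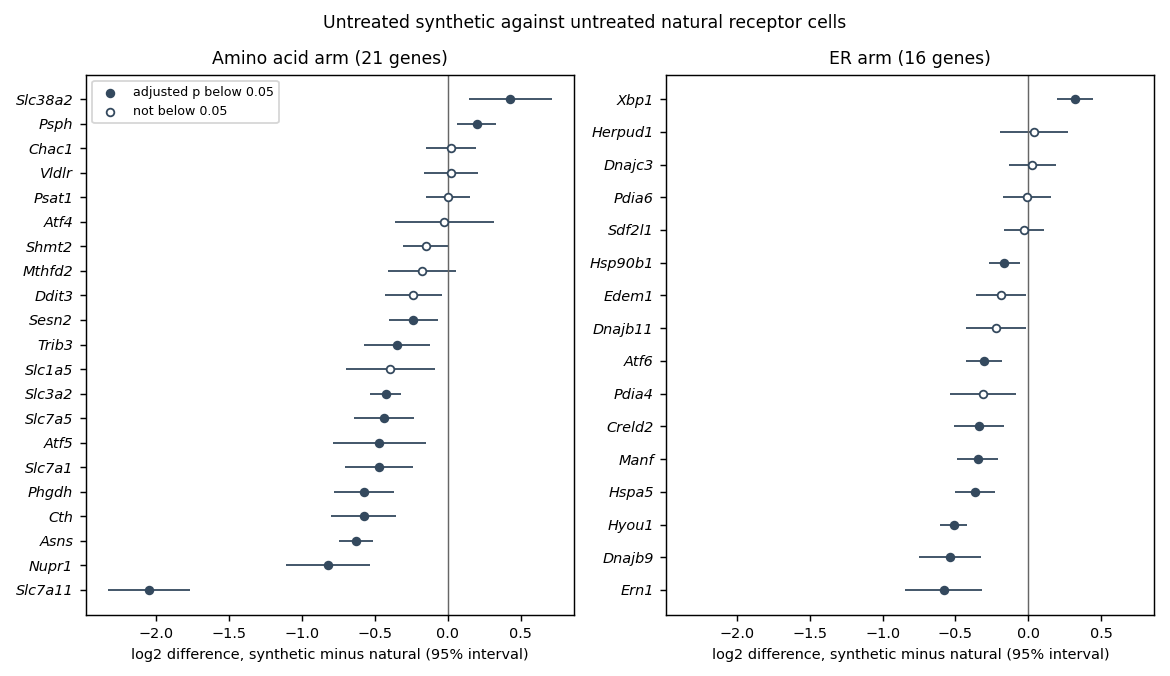
Log2 difference of each gene between the untreated lines, synthetic minus natural, with its 95% interval, ordered within each arm; filled points have an adjusted p below 0.05. Slc7a11 (-2.05) lies far below all others, and Slc38a2, Psph and Xbp1 are the filled points above 0.

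The genes around these arms were read from 4 further lists, whose counts stand beside shares over all genes of 5.39% higher and 6.03% lower with IL-22, 14.2% and 11.8% with GFP-mCherry, and 14.0% and 13.0% with mCherry-Fc. Of 14 measured genes of eIF2 kinases, eIF2B and the eIF2α phosphatase, IL-22 raised 4 and lowered 1. The kinase genes moved apart: Eif2ak4 (GCN2, the amino acid sensor) rose by 1.16 (adjusted p = 1.48e-11) and Eif2ak2 (PKR, the double-stranded RNA sensor) by 0.98 (adjusted p = 3.33e-05), and Eif2ak3 (PERK, the ER sensor) fell by 0.68 (adjusted p = 1.02e-05). GFP-mCherry raised 8 of the 14 and lowered none, led by the exchange factor subunit genes Eif2b3 (0.40) and Eif2b2 (0.34). mCherry-Fc raised 8 and lowered none, led by the phosphatase subunit gene Ppp1r15b (0.41) and Eif2b3 (0.37). In the test of the 2 responses, the response of Eif2ak4 to GFP-mCherry minus that to IL-22 was -1.23 (adjusted p = 2.17e-09), that of Eif2ak2 -0.94 (adjusted p = 0.0016) and that of Eif2ak3 0.73 (adjusted p = 0.000188).

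Cytosolic aminoacyl-tRNA synthetases load tRNA with amino acids. Of 18 measured, 3 rose with IL-22 (Rars 0.49 and Farsb 0.33 the most), 11 rose and 1 fell with GFP-mCherry, and 11 rose and none fell with mCherry-Fc. Hars (0.49 and 0.45) and Mars1 (0.42 and 0.38) led both synthetic responses, and Iars fell by 0.22 with GFP-mCherry. The list medians were 0.12, 0.21 and 0.22, beside -0.02, -0.04 and -0.04 for all genes. Untreated synthetic cells had 7 of 18 lower, with Wars (-0.39) and Tars (-0.38) the lowest, and 1 higher. Over all genes tested, 6.62% were lower and 8.60% higher in that comparison.

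Of 18 other genes described as ATF4 targets or partners, IL-22 raised 3 and lowered 1. Nfil3, a leucine zipper factor that cytokines also induce, rose by 1.97 (adjusted p = 1.82e-09) and Cebpb by 0.59, while Cebpa fell by 0.40. GFP-mCherry raised 7 and lowered none, and mCherry-Fc raised 7 and lowered 1. Cebpa rose by 0.76 and 0.66 with these ligands. The response of Cebpa to GFP-mCherry exceeded that to IL-22 by 1.15 (adjusted p = 4.32e-08). Of 27 other ER quality control genes, none rose and 1 fell with IL-22 (Erlec1, -0.31). GFP-mCherry raised 6 and lowered none, beside 14.2% and 11.8% of all genes, and mCherry-Fc raised 5 and lowered 1, beside 14.0% and 13.0%. The list medians were 0.09 and 0.08 with these ligands, beside -0.04 and -0.04 for all genes. Edem2, a mannosidase-like degradation factor (0.42 and 0.36), and the oxidoreductase Txndc5 (0.35 and 0.37) rose most. Untreated synthetic cells had 8 of the 27 lower, with the oxidase gene Ero1a lowest (-1.12), and 1 higher, beside 6.62% lower and 8.60% higher of all genes. None of these 4 lists had a gene called between GFP-mCherry and mCherry-Fc in limma, where 0, 0, 1 and 1 genes had an unadjusted p below 0.05, beside 8.78% of all genes.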

How the data were processed

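Total RNA of 26 samples was measured on Affymetrix arrays. The authors made 1 value per probe set with Affymetrix Expression Console 4.0, per the submitters' processing notes. These deposited values were read as log2 intensity from their range. Summarization, background correction and genome build are not given in the sources used here. Of 35556 probe sets, 21789 had 1 symbol, 1621 several and 12146 none. Those with several or none were left out, which removed a further Phgdh probe set shared with another symbol. The brightest probe set stood for the 999 genes with several, including Dnajc3 and Pdia4, leaving 19938 genes without a filter. All 26 arrays entered one group-means model (R 4.3.3, limma 3.58.1, lmFit and eBayes) with 6 contrasts, two-sided tests and Benjamini-Hochberg adjustment over all genes. The number of arrays limits the precision. The fit was tested on simulated data.

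The members and lists were chosen with earlier results of these data known. By rule, all 37 genes were accounted for, and the 4 largest rises and falls per comparison were given with values. Slc7a5 and Slc1a5, called in 3 ligand comparisons, were given array by array (groups of 6 as lowest, median and highest), and Atf4, Ddit3, Atf6, Ern1 and Xbp1 were named in each ligand comparison. Markers and lists were fixed by symbol, and of other lists the 2 largest rises and falls could be named.

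In the replicate block, arrays of one number were taken as pairs, in every comparison but that of the untreated lines. Numbers held by only 1 group of a line form no pair. The deviations of paired arrays from their group means were correlated as a description, without choosing comparisons by it. The correlations were 0.378, 0.313 and 0.621 for IL-22 and untreated, and 0.26, 0.466 and 0.326 for mCherry-Fc and untreated. They were 0.22, 0.271 and 0.105 for GFP-mCherry and mCherry-Fc, and from -0.146 to 0.417 for GFP-mCherry and untreated. Arrays of different numbers were not compared in this way, and arrays of one number also share a number range. The labels do not say what the numbers mean, so the pairing is an assumption. Low numbers are 1 to 3 (natural) and 7 to 11 (synthetic), and high numbers the rest. Alternatives were normalization, centring, probe set choice, a filter on dim genes, the variance prior, the arrays fitted, the replicate block, number range, and leaving out arrays.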

Additional observations from a re-analysis of the deposited data

Results flagged for a closer look

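In 16 of 185 gene and group sets, 1 array lay apart from its group by Dixon's criterion, where chance gives about 1 in 20. IL-22 array 5 accounted for 9 of the 16. It was low for Atf4 (8.88), Herpud1 (9.54), Shmt2 (11.27), Slc1a5 (9.20), Slc38a2 (11.30) and Slc7a5 (11.51), and high for Ern1 (9.89), Pdia4 (11.26) and Pdia6 (12.13). It is the IL-22 array of the high number range, in which Itgam, Mpo and Lyz2 were high. Untreated synthetic array 7 was low for Atf6 (9.13), Ern1 (8.54) and Slc1a5 (8.33). Single arrays stood apart for Cth (mCherry-Fc array 14, 5.22), Dnajc3 (untreated natural array 4, 9.54), Psph (untreated natural array 5, 7.46) and Xbp1 (untreated natural array 2, 11.50).

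In 8 genes the GFP-mCherry response differed from the IL-22 response by the test of the difference itself (adjusted p below 0.05). It was larger for Slc3a2 (0.22), Creld2 (0.45), Sdf2l1 (0.43), Manf (0.38) and Edem1 (0.35), and smaller for Nupr1 (-1.02), Xbp1 (-0.51) and Atf6 (-1.56).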

How the results depend on the processing

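Of the calls reported, those kept under every alternative run were 4 of 7 with IL-22 (Atf6, Xbp1, Nupr1 and Mthfd2), 8 of 18 with GFP-mCherry (Asns, Slc7a11, Slc7a5, Slc1a5, Creld2, Sdf2l1, Manf and Edem1), 7 of 13 with mCherry-Fc (the same without Slc7a11), 3 of 8 between the GFP-mCherry and IL-22 responses (Nupr1, Xbp1 and Atf6) and 16 of 22 between the untreated lines. No called gene changed sign; Ern1, not called between the responses, was -0.52 within the high replicate numbers, a value that rests on IL-22 array 5 alone, itself apart from its group for Ern1. Kept calls for IL-22 and between the responses also had to pass within the high numbers, a fit with 1 IL-22 array. Counts that moved by over 1.5 times were as follows, without the share of all genes called under the same alternative. With only the groups compared, 2 amino acid genes were called for IL-22 and 2 for GFP-mCherry against mCherry-Fc. Median centring gave 6 amino acid genes for GFP-mCherry and 8 for mCherry-Fc. Quantile normalization gave 5 ER genes for mCherry-Fc and 5 amino acid genes between the responses. With number range as a term the counts were 11 ER genes for GFP-mCherry, 8 amino acid genes for mCherry-Fc, 3 amino acid genes for GFP-mCherry against mCherry-Fc and 6 amino acid genes between the responses. Within the low numbers they were 12 ER genes for GFP-mCherry, 3 amino acid genes and 1 ER gene for GFP-mCherry against mCherry-Fc, and 5 amino acid and 11 ER genes between the responses. Within the high numbers 8 amino acid genes were called for mCherry-Fc. The count between the responses there rests on 1 IL-22 array and is not given. The causes were not tested. Leaving out single arrays, amino acid counts ran from 3 to 8 for IL-22, 7 to 10 for GFP-mCherry, 3 to 7 for mCherry-Fc, 1 to 4 between the responses and 8 to 13 between the lines. ER counts ran from 2 to 4, 5 to 9, 6 to 8, 5 to 8 and 8 to 10 in that order.

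With the replicate block 5 amino acid and 3 ER genes were called for IL-22, 6 and 5 for mCherry-Fc, and 0 and 0 for GFP-mCherry against mCherry-Fc. GFP-mCherry and untreated arrays share 6 numbers but did not all deviate together (correlations -0.146 to 0.417); the block gave 13 and 9 there, and 2 and 7 between the responses. Precision was limited by 4 to 6 arrays a group, by dim probe sets and by the single IL-22 array of the high number range.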
